A study of Mus musculus with 4 samples.

Results

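The genes of the proteasome, the complex that degrades ubiquitin-tagged proteins, were followed by ribosome profiling (Ribo-seq) in FGSCs, a stem cell culture from the mouse ovary whose name stands for female germline stem cells. Members were chosen by symbol, as protein-coding genes whose name begins with Psm followed by a letter from a to g and a digit, and 2 further symbols of this form were left out. The rule took 44 of the 30694 genes of the gene table, of which 16948 were protein coding. Psmc3ip, which has the name form but encodes a factor of meiotic recombination, was kept apart, and the other 43 genes are described here. They comprise 7 core alpha, 8 core beta and 6 ATPase subunits, 11 other regulatory subunits, 5 genes of activators or an inhibitor, and 6 assembly chaperones. Psma8, Psmb11 and Psmd10 were not analysed here.

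The cells were infected with lentivirus that carried either a control short hairpin RNA (shNC, 2 libraries) or a hairpin against the long noncoding RNA Gm26917 (shGm26917, 2 libraries, named KO in the labels), and infected cells were selected with an antibiotic. The comparison asked how knockdown of Gm26917, which the study connects to the mRNA of the ribosomal protein Rpl10, changed translation. Which of the study's hairpins was used for profiling was not stated in the sources used here. The study calls the libraries of a group biological replicates, the labels name no separate cultures, and the p-values below measure only the spread between these libraries.

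The proteasome consists of a barrel-shaped core particle and of regulatory particles that cap its ends. Alpha subunits form the outer rings of the core and gate its channel, beta subunits form the inner rings and some of them cut peptide bonds, and the ATPases of the regulatory particle unfold substrates and feed them into the core. Other regulatory subunits bind and remove ubiquitin, and dedicated chaperones put the parts together. Germ cells depend on this system for protein turnover during meiosis and gamete formation.

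Both deposited tables were used. The gene table gave translation efficiency (TE), the ratio of normalized footprints to normalized RNA of a gene in a library. The sources used here do not say whether either term was scaled by length, and the depth behind a ratio is unknown. The table of open reading frames (ORFs) held footprint values of 4669 ORFs, adjusted for library size, from which whole reads were recovered. The shNC libraries held 1618481 (replicate 1) and 1049143 (replicate 2) of these reads, and the shGm26917 libraries 157914 (replicate 1) and 1753036 (replicate 2). In shGm26917 replicate 1 only 372 ORFs (7.97%) were listed above 0, against 3421 to 4250 in the other libraries. Across the 10115 genes with a TE above 0 in all libraries, the pairs of libraries with shGm26917 replicate 1 had an r of log2 TE of 0.772 to 0.783, and the other pairs one of 0.921 to 0.935. Both shGm26917 libraries left the TE blank in the same 5608 genes, and their ratio to each other repeated an identical value in 42.9% of genes, against 0.840% to 0.969% of genes in every other pair. This is the pattern that a shared RNA denominator would leave, but the sources used here, which name an RNA-seq data set of the same cells, do not say which of its libraries served for each TE column, and the TE values of the knockdown libraries are not known to be independent in their RNA part. For Gm26917 itself the TE was 17.0 and 23.8 in shNC, 113 in shGm26917 replicate 1 and 8.62 in replicate 2, and this ratio does not measure its RNA level. Of 7 female germline markers 4 (Ddx4, Dazl, Pou5f1 and Dppa3) had no TE above 0 and no ORF, whereas all 5 stroma or fibroblast markers had an ORF. The paper characterized its FGSCs by RT-PCR for Oct4 (Pou5f1), Ddx4, Fragilis (Ifitm3) and Blimp1 (Prdm1), and by immunofluorescence for DDX4 and OCT4. Among the remaining germline markers, Ifitm3 and Kit kept a ratio above 0 in every library. That of Kit, which had no ORF, ranged from 0.674 (shGm26917 replicate 1) to 1.19 (shGm26917 replicate 2). Prdm1, also without an ORF, was above 0 only in the control libraries (0.821 in replicate 1, 1.61 in replicate 2) and listed at 0 after knockdown. The summed ORF values for the stroma list were 3888, 4197, 677 and 3093, in the order shNC replicates 1 and 2 and shGm26917 replicates 1 and 2. For 5 macrophage markers they were 1074, 772, 0 and 1436 in this order, nearly all from Adgre1 (1072, 770, 0 and 1423). For the germline list they were 1111, 797, 0 and 799, from Ifitm3 alone. The granulosa and endothelium lists had no ORF. The part of cell composition in the results was not tested, and in bulk libraries fewer cells of a type and less RNA per cell cannot be told apart.

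The RefSeq start of an mRNA was printed for members at the ends of the TE range or of the TE change. Ribosomal protein mRNAs carry a terminal pyrimidine tract at their start, through which growth signals control their translation. In each run the 25 bases before the RefSeq start are in lower case and the 5 bases from that start are in capitals. Runs are read 5′ to 3′ on the strand of the gene in build GRCm38.p6. The gene as annotated with the TE values begins upstream of the whole run for Psmb5 (54618022), Psmc1 (100110154) and Psme1 (55578123). It begins within the lower-case bases for Psma3 (70974621) and Psmb4 (94886961). The listed ORFs of Psmb5 (54617991) and Psmc1 (100110209) start at or just after the end of the run, so these RefSeq starts may not be the 5′ ends of their mRNAs. All lower-case bases of Psmb5, Psmc1 and Psme1 therefore lie inside that annotated gene. Psma3 and Psma5, the core alpha genes of lowest TE, lie at chr12:70974598-70974627 (plus strand) and chr3:108256901-108256930 (plus strand).
Psma3: cgtcccagcccacggaacaagccgcAAGAG
Psma5: atcaggccaagtcttgcagccatccAAAGC
Psmb5 and Psmc1, whose TE was farthest below shNC in shGm26917 replicate 1, lie at chr14:54617991-54618020 (minus strand) and chr12:100110177-100110206 (plus strand).
Psmb5: ggaggcagttcctgttgcccttgctAAACA
Psmc1: ccggcggtggcgatttggaggactgAAGGA
Psme1, among the members farthest above shNC in that library, lies at chr14:55578469-55578498 (plus strand).
Psme1: aacccaggaaggccgtgcaggtttcGAGCT
Psmb4, the core subunit of highest TE, and Psmg3, the chaperone of highest TE, lie at chr3:94886954-94886983 (minus strand) and chr5:139826890-139826919 (minus strand).
Psmb4: gagaggcgtggcaaaggaccacttcCGTTT
Psmg3: ctacggaccttaggcccaacggacaGGAAC
Of the 43 genes 36 matched the RefSeq promoter table, with 39 start sites. A transcript beginning with C and then 4 pyrimidines was found at 0 of these 39 sites, at 385 of 16558 sites (2.33%) of protein-coding genes and at 13 of 70 sites (18.6%) of cytosolic ribosomal protein genes. The search was of the transcript strand at the annotated start base alone, so a tract a few bases away was not counted. With so few sites and a background of 2.33%, a count of 0 cannot show that the members lack a tract.

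Proteasome mRNAs mostly had a higher TE than the median protein-coding gene in these cells. The median TE of the 42 members with a ratio above 0 in all libraries was 1.95 in shNC replicate 1, 1.66 in shNC replicate 2, 1.60 in shGm26917 replicate 1 and 2.43 in shGm26917 replicate 2, while the median of 9672 protein-coding genes lay between 0.973 and 0.995. By mean log2 TE over the 4 libraries, 34 of 42 members were above the median of protein-coding genes and 26 were above its 75th percentile. The member of the rule that had no such ratio was Psma3, a core alpha subunit, whose TE stood at 0.0439 and 0.0248 in shNC, listed at 0 in shGm26917 replicate 1 and at 0.0809 in replicate 2.

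Levels of the 42 tested members were spread over the parts of the complex. Median TE was highest in the assembly chaperones, at 3.11 and 2.74 in shNC and 2.75 and 3.34 in shGm26917. It was 2.68 and 2.41 in shNC for core beta subunits and 2.75 and 2.47 for ATPases. Other regulatory subunits lay lower at 1.86 and 1.51, core alpha subunits at 1.19 and 1.17, and the activators and inhibitor lowest at 0.631 and 0.589. Within a class the range was wide, and the 6 tested core alpha members spanned 0.196 to 3.62 in shNC replicate 1, so the classes overlapped.

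**Figure D1:**
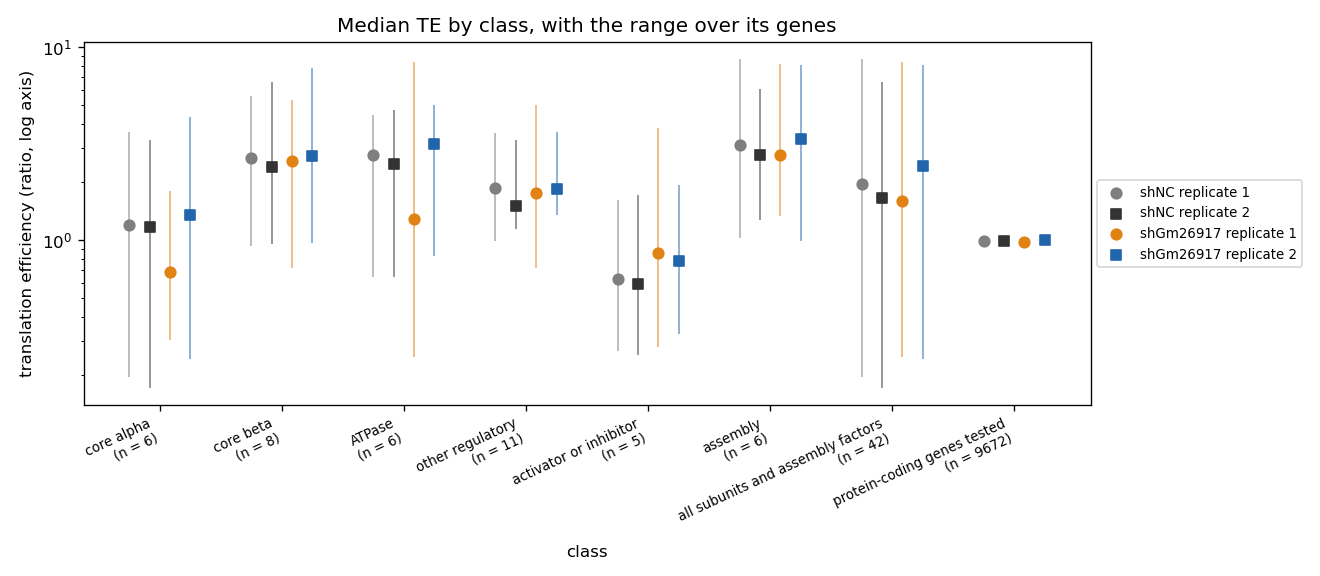
Median TE of each class of proteasome genes (points) in each of the 4 libraries on a log axis, with lines for the lowest and highest tested gene. The median of all protein-coding genes tested is at the right without a range. Assembly chaperones, core beta subunits, ATPases and other regulatory subunits lie above the protein-coding median in all libraries. Core alpha subunits and ATPases are lowest in shGm26917 replicate 1, at 0.683 and 1.29.

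No proteasome gene passed the test for a changed TE after knockdown. Below, a log2 change is shGm26917 minus shNC, and the value after ± is its standard error from the fit, with n = 2 libraries per group. With limma on log2 TE, 0 of 42 members passed an adjusted p under 0.05 (background 0% of 10115 genes), 0 had an unadjusted p under 0.05 (background 2.34%), and 0 reached the study's threshold of a 1.5-fold change at an unadjusted p of at most 0.05 (background 2.34%). The smallest unadjusted p was 0.153, of Psma5, and limma's adjusted p ran from 0.966 to 0.997. The median log2 change of the members was 0.11, beside 0.00095 over all genes tested. It was above 0 in 28 members and below 0 in 14, and 50.0% of all genes were above 0.

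The knockdown libraries gave different pictures of the complex. In shGm26917 replicate 2, TE was above both shNC libraries in 32 of 42 members (background 36.0%) and below both in 3 (background 32.9%), namely Psmb5, Psmd5 and Psmd11. The difference from the shNC mean had a median of 0.28 on the log2 scale, beside 0.024 over all genes, and ranged from -0.27 to 0.60 with an SD over members of 0.22. Between the shNC libraries themselves the members differed with an SD of 0.25 and by up to 0.66. In shGm26917 replicate 1, TE was above both shNC libraries in 21 members (background 43.0%) and below both in 17 (background 42.5%). Here the median difference was 0.05, the range -2.17 to 1.52 and the SD 0.82. The libraries put 17 of 42 members on opposite sides of both shNC libraries (30.4% of all genes), 15 of them below in replicate 1 and above in replicate 2 (15.8% of all genes). Over the 42 members, r was 0.720 to 0.779 in pairs with shGm26917 replicate 1 and 0.976 to 0.978 in the other pairs.

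**Figure D2:**
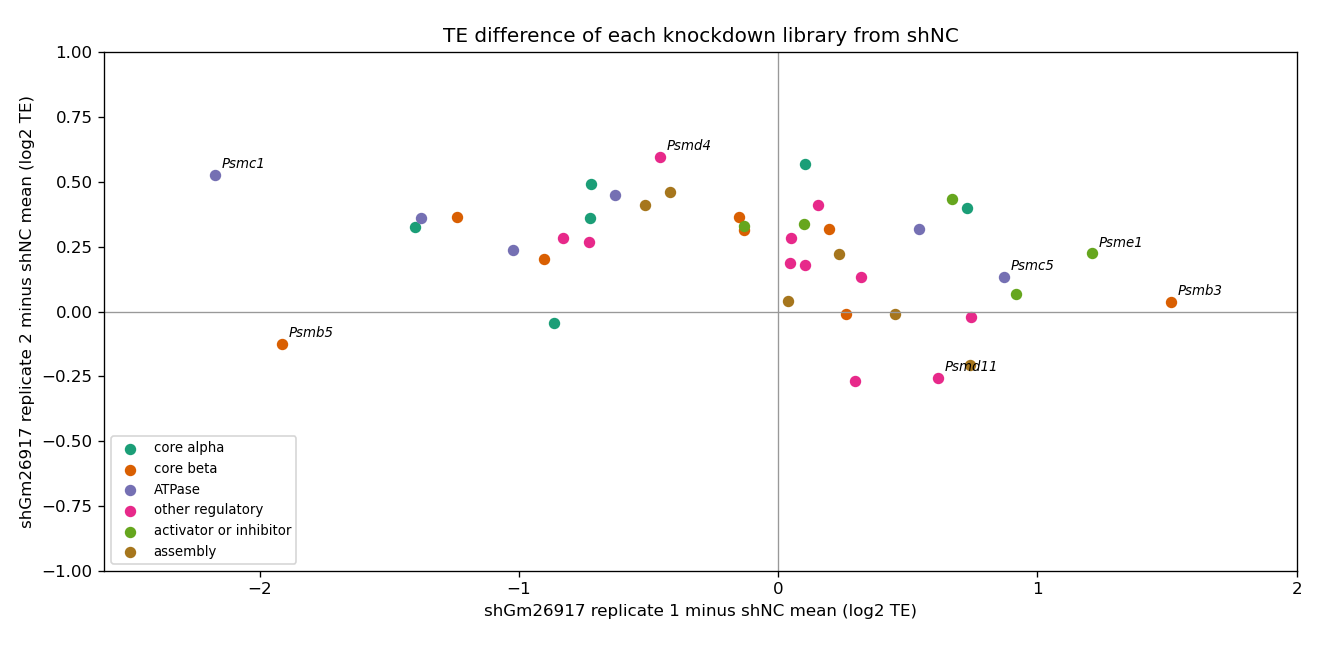
Each point is 1 of 42 proteasome genes, placed by its log2 TE in shGm26917 replicate 1 (horizontal axis) and replicate 2 (vertical axis) minus the mean log2 TE of both shNC libraries, with colours for the class. Points spread from -2.17 to 1.52 along the horizontal axis and from -0.27 to 0.60 along the vertical one, where most lie above 0.

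The groups did not overlap in 15 members. TE was higher in both shGm26917 libraries than in both shNC libraries for 14 members (background 16.1%), namely Psma5, Psma7, Psmb3, Psmb6, Psmc3, Psmc5, Psmd2, Psmd6, Psmd7, Psmd13, Psme1, Psme4, Psmf1 and Psmg1. The count was 9 when libraries were quantile normalized (background 15.5%), where the members' median change was also no longer above 0 (-0.00066). Lower in both was Psmb5 alone (background 14.8%). Leaving out a knockdown library leaves 1 sample in that group, which is then assumed to vary like the shNC libraries. Without shGm26917 replicate 2, 14 members reached the study's threshold (background 33.4%), 4 higher (background 16.0%) and 10 lower (background 17.4%), and 0 passed limma's adjusted p (background 2.52%), with 0.0506 the smallest. Without shGm26917 replicate 1, 0 members reached it (background 5.76%, of which 1.96% higher and 3.81% lower).

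Among the core alpha subunits, TE in shGm26917 replicate 1 was below both shNC libraries for 4 of 6 tested members (background 42.5%) and in replicate 2 above both for 5 (background 36.0%). Psma2, a ring subunit with the highest TE in its class, had 3.62 and 3.30 in shNC and 1.31 and 4.33 in shGm26917, so its knockdown values lay on either side of shNC. Its log2 change was -0.54 ± 0.65, and it became 0.33 without shGm26917 replicate 1. Psma4 had 0.495 and 0.507 in shNC and 0.304 and 0.704 in shGm26917, likewise with the lowest and the highest value from knockdown libraries. Psma5, the tested member of lowest TE (percentile 5.08 of protein-coding genes), had 0.196 and 0.170 in shNC and 0.302 and 0.241 in shGm26917. Both of its knockdown values were higher, and its log2 change was 0.57 ± 0.33 (limma adjusted p = 0.966). The sources used here do not say how reads that also match near-identical copies elsewhere in the genome were counted, which makes the low ratios of Psma3 and Psma5 uncertain.

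Among the core beta subunits, the gene with the largest negative change was Psmb5, which carries the chymotrypsin-like active site of the core (chromosome 14, 54614119 to 54618022 in mm10). Its TE was 2.87 and 2.56 in shNC and 0.719 and 2.49 in shGm26917. Only shGm26917 replicate 1 stood far from the rest, and replicate 2 was 0.12 below the shNC mean on the log2 scale. The log2 change was -1.02 ± 0.67 (limma adjusted p = 0.966). Psmb6, with the caspase-like site, had 2.49 and 2.25 in shNC and 2.71 and 2.95 in shGm26917, both slightly above. Psmb7, with the trypsin-like site, had 5.01 and 4.54 in shNC and 2.55 and 5.49 in shGm26917, on either side of shNC. Psmb10, the inducible counterpart of Psmb7 in the immunoproteasome, had 3.75 and 5.32 in shNC and 5.35 and 4.44 in shGm26917, and its groups overlapped. The active-site genes thus shared no direction in shGm26917 replicate 1. There Psmb5 and Psmb7 were below both shNC libraries and Psmb6 above both, while Psmb10 barely exceeded its higher shNC value (5.35 against 5.32).

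Psmb3, a beta subunit without a catalytic site, had the largest positive change of all members. Its TE was 0.936 and 0.952 in shNC and 2.70 and 0.969 in shGm26917. The log2 change of 0.78 ± 0.58 (limma adjusted p = 0.966) came from shGm26917 replicate 1, and it was 0.04 without that library. Psmb4, also non-catalytic, had 5.60 and 6.57 in shNC and 2.57 and 7.82 in shGm26917, again on either side of shNC.

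**Figure D3:**
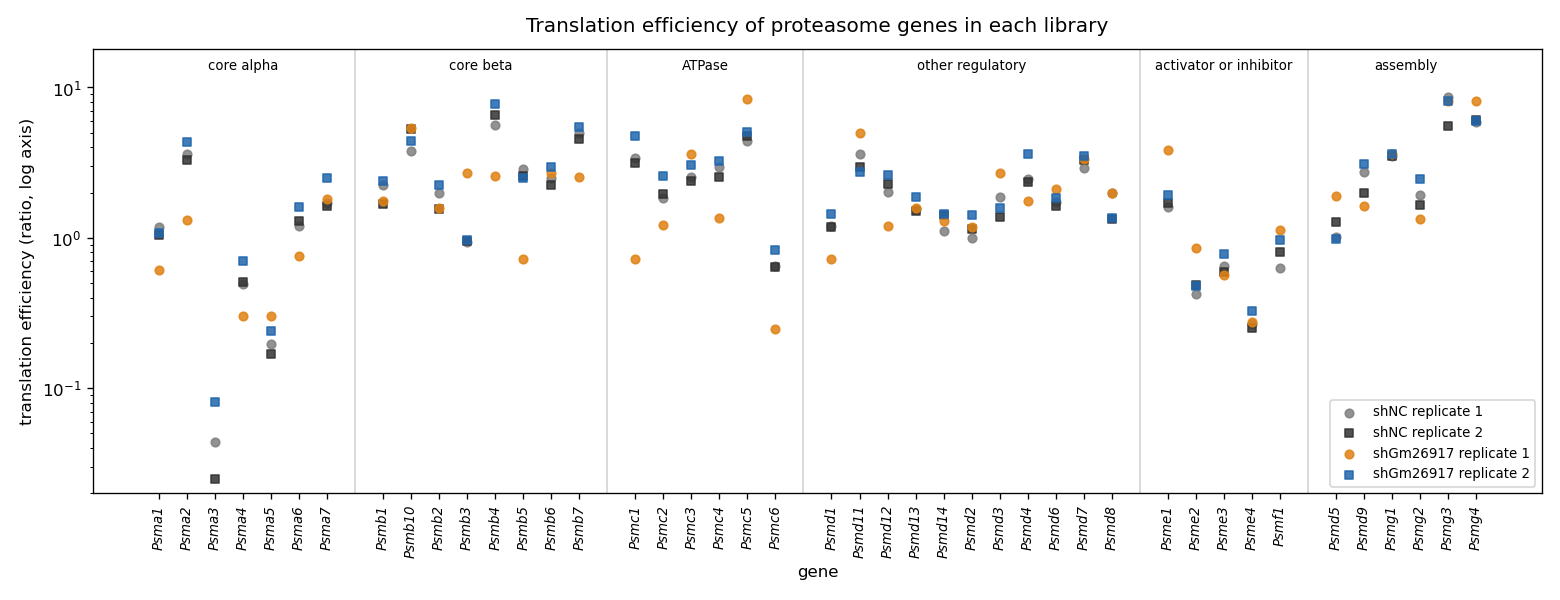
TE of each of the 43 proteasome genes in the 4 libraries on a log axis, grouped by class, with Psma3 not drawn where it was listed at 0. Circles of shGm26917 replicate 1 leave the cluster of the other points in both directions, as in Psmb5 (0.719) and Psme1 (3.83).

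All 6 ATPases, which form the ring that unfolds substrates, had a higher TE in shGm26917 replicate 2 than in both shNC libraries (background 36.0%), and 4 of 6 a lower one in replicate 1 (background 42.5%). Psmc1 had 3.40 and 3.16 in shNC and 0.728 and 4.73 in shGm26917, the lowest and the highest value both from knockdown libraries. Its log2 change was -0.82 ± 0.95 and became 0.53 without shGm26917 replicate 1. Psmc6 had 0.646 and 0.640 in shNC and 0.247 and 0.826 in shGm26917, and its change of -0.51 ± 0.65 became 0.36 in the same way. The same held for the next pair, where shGm26917 replicate 1 was again lowest and replicate 2 highest. Psmc4 had 2.97 and 2.56 in shNC and 1.35 and 3.25 in shGm26917. Psmc2 had 1.83 and 1.95 in shNC and 1.22 and 2.58 in shGm26917. Psmc3 and Psmc5 were the exceptions, with both knockdown libraries above shNC. Psmc3 had 2.54 and 2.39 in shNC and 3.59 and 3.07 in shGm26917. Psmc5 had 4.43 and 4.75 in shNC and 8.39 and 5.03 in shGm26917, the highest TE of the ATPases.

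Among the other regulatory subunits, the ubiquitin receptors and the deubiquitinase had log2 changes of 0.07 to 0.28, all below their standard errors. Psmd2, a scaffold of the base that binds ubiquitin shuttle proteins, stood at 0.993 and 1.14 in shNC and 1.18 and 1.41 in shGm26917, with a log2 change of 0.28 ± 0.32. Psmd4, a receptor for ubiquitin chains, had 2.46 and 2.34 in shNC and 1.75 and 3.63 in shGm26917, and had the largest difference of shGm26917 replicate 2 from the shNC mean, 0.60 on the log2 scale. Psmd14, the metalloprotease that removes ubiquitin chains from substrates, had 1.12 and 1.42 in shNC and 1.30 and 1.43 in shGm26917, and its groups overlapped. The log2 changes of the 11 genes of this class ran from -0.27 to 0.36, a narrower range than the -1.02 to 0.78 of core beta subunits. In shGm26917 replicate 1, 7 of these 11 genes were above (background 43.0%) and 3 below both shNC libraries (background 42.5%). Psmd6, Psmd7 and Psmd13, which belong to the lid, were higher in both knockdown libraries, with Psmd7 at 2.90 and 3.29 in shNC and 3.32 and 3.50 in shGm26917.

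All 5 genes of the activators and the inhibitor had a positive log2 change, 0.10 to 0.72, and 0 of them an unadjusted p under 0.05. Psme1 and Psme2 encode the subunits of the interferon-induced activator ring. The TE of Psme1 stood at 1.61 and 1.71 in shNC and 3.83 and 1.94 in shGm26917, both higher. Its log2 change was 0.72 ± 0.45 (limma adjusted p = 0.966), and it was 0.22 without shGm26917 replicate 1 and 1.21 without replicate 2. Psme2 had 0.424 and 0.486 in shNC and 0.858 and 0.475 in shGm26917, so that replicate 2 lay within the shNC values. Psme3, which encodes a nuclear activator, had 0.646 and 0.589 in shNC and 0.563 and 0.776 in shGm26917. Psme4, the single-chain activator that acts in chromatin and in spermatogenesis, had 0.266 and 0.252 in shNC and 0.277 and 0.327 in shGm26917, the lowest TE after Psma3 and Psma5. Psmf1, which inhibits the core particle in biochemical assays, had 0.631 and 0.800 in shNC and 1.13 and 0.961 in shGm26917. Its log2 change of 0.55 ± 0.33 (limma adjusted p = 0.966) kept its sign without either knockdown library, at 0.44 and 0.67.

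By mean log2 TE over the libraries, the assembly chaperones Psmg3 and Psmg4 had the highest TE of all members. Psmg3 and Psmg4, which together help to build the alpha ring, had 8.70 and 5.52 in shNC and 8.15 and 8.09 in shGm26917 (Psmg3), and 5.91 and 6.07 against 8.18 and 5.95 (Psmg4). They stood at percentiles 98.8 and 98.3 of protein-coding genes. Psmg1 and Psmg2, the other alpha-ring chaperones, differed in their spread. Psmg1 had 3.49 and 3.52 in shNC and 3.59 and 3.60 in shGm26917, the closest values of all members, and its log2 change was 0.04 ± 0.30. Psmg2 had 1.93 and 1.65 in shNC and 1.33 and 2.46 in shGm26917, on either side of shNC. Psmd5 and Psmd9, chaperones of the ATPase ring, had opposite orders of the knockdown libraries. Psmd5 had 1.02 and 1.28 in shNC and 1.90 and 0.987 in shGm26917, and Psmd9 had 2.73 and 1.97 in shNC and 1.63 and 3.08 in shGm26917. Psmc3ip, which is no subunit, had 2.23 and 1.84 in shNC and 1.51 and 3.80 in shGm26917.

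Footprints on single ORFs gave no call either, and most proteasome ORFs were listed at 0 in shGm26917 replicate 1. The ORF table held 28 ORFs of 26 members, 27 of them annotated coding sequences, and 17 members had none. The other was an ORF of 113 codons in Psmb6 that ends with the annotated ORF of 238 codons, and Psmd8 had ORFs of 253 and 353 codons, and how reads were divided between such nested or overlapping ORFs is not known here. Of these ORFs 28 (replicate 1) and 27 (replicate 2) had a value above 0 in shNC, and 8 (replicate 1) and 25 (replicate 2) in shGm26917. The share of reads in them was 1.07% and 1.27% in shNC and 1.27% and 1.25% in shGm26917. In shGm26917 replicate 1 it rested on 8 ORFs with 2003 reads, 528 of them from the longer Psmd8 ORF. That ORF had 5 and 3 reads in shNC and 0 in shGm26917 replicate 2, so the similar shares came from different ORFs. All 20 ORFs at 0 in shGm26917 replicate 1 belonged to genes with a TE above 0 there, so a 0 is given as listed. Of the 28 ORFs, 7 were listed in all libraries (background 6.34%) and 17 in all but shGm26917 replicate 1 (background 48.8%).

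With limma on log2(value + 1), 0 of 28 ORFs passed an adjusted p under 0.05 (background 0% of 4669 ORFs) and 1 reached the study's threshold (background 7.37%). With all libraries the median log2 change of the ORFs was -2.55, beside -2.13 over all ORFs, and without shGm26917 replicate 1 it turned to 0.26, beside 0.28. The ORF at the threshold was that of Psmc5, whose value was 418 and 491 in shNC but 0 in each knockdown library (limma adjusted p = 0.341). With edgeR on the recovered reads, 0 of 23 ORFs tested were called (background 0%), with 0 at an unadjusted p under 0.05 and 0 at the study's threshold (background 0.102%). DESeq2 called 0 (background 0.141%), with 2 at an unadjusted p under 0.05 and at the study's threshold (background 7.50%), Psmc5 (DESeq2 adjusted p = 0.0680) and the longer Psmd8 ORF. The Psmc5 gene had a TE above shNC in both knockdown libraries, in contrast to its ORF. Without shGm26917 replicate 2, where again the spread came from the shNC libraries alone, limma called 19 ORFs (background 42.5%), among them ORFs listed at 0 in the remaining knockdown library.

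In most proteasome ORFs listed in both shNC libraries and shGm26917 replicate 2, that knockdown library was above the shNC mean. Over the 24 ORFs listed in shNC replicates 1 and 2 and shGm26917 replicate 2, the latter differed from the shNC mean by a median of 0.27 on the log2 scale, beside -0.0098 over 2575 such ORFs, and 16 of 24 were higher (49.4% of all). It was above both shNC libraries in 14 of 28 ORFs (background 37.6%) and below both in 6 (background 28.6%). Psmb4 had the highest footprint value per kilobase, 4109 and 4563 in shNC and 1311 and 5607 in shGm26917. The ORF of Psmc2 stood at 2845 and 2783 in shNC, was listed at 0 in shGm26917 replicate 1 and had 3345 in replicate 2. Psma2 had 1550 and 1508 in shNC, 0 in shGm26917 replicate 1 and 1728 in replicate 2, so both abundant ORFs were missing from a single library. Psmc6 differed more, with 374 and 388 in shNC, 0 in shGm26917 replicate 1 and 868 in replicate 2.

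**Figure D4:**
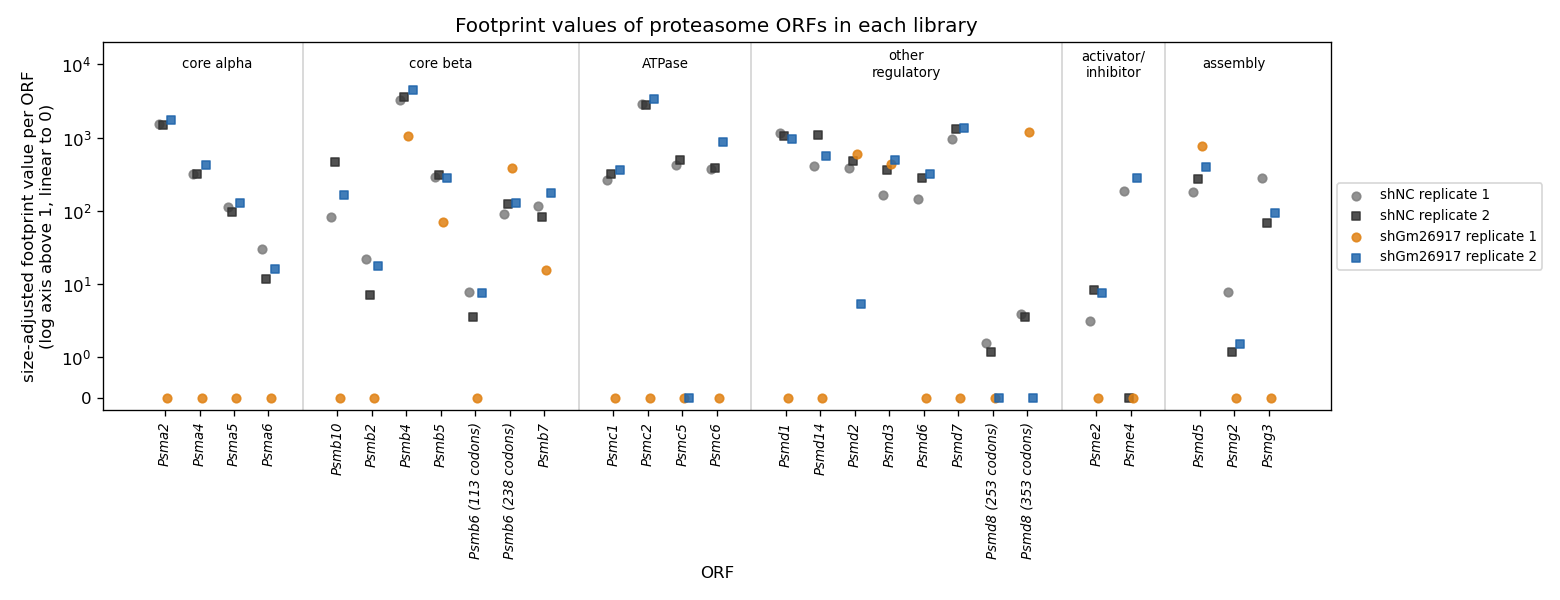
Size-adjusted footprint value of each of the 28 proteasome ORFs in the 4 libraries, on an axis that is logarithmic above 1 and linear down to 0. Of the 28 ORFs 20 sit at 0 in shGm26917 replicate 1, as in Psmc2, where the other libraries lie between 2783 and 3345.

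Proteasome ORFs without overlap between groups lay on both sides of shNC. Groups did not overlap in 3 ORFs with higher values (background 1.73%), those of Psmd5, Psmd3 and the longer one of Psmb6, and in 4 with lower values (background 27.3%), those of Psmb5, Psmc5, Psmd1 and the shorter one of Psmd8. Of these 4 only Psmb5 was listed above 0 in shGm26917 replicate 1, and the shorter Psmd8 ORF held 2 reads and 1 read in shNC and 0 in shGm26917. The ORF of Psmd5 stood at 182 and 273 in shNC and 780 and 395 in shGm26917. Psmd3, a lid subunit, had 163 and 362 in shNC and 441 and 497 in shGm26917. The longer Psmb6 ORF had 91.6 and 124 in shNC and 382 and 128 in shGm26917, so only replicate 1 was far above shNC in this gene. Among the lower ones, that of Psmb5 stood at 288 and 307 in shNC and 69.7 and 277 in shGm26917, with shGm26917 replicate 1 lowest in both tables. Psmd1, a large scaffold subunit, had 1160 and 1058 in shNC, 0 in shGm26917 replicate 1 and 946 in replicate 2. Psmb7, whose groups overlapped, had 115 and 81.6 in shNC and 15.7 and 173 in shGm26917, the same order of libraries as its TE. In Psmd2 the knockdown libraries were at the opposite ends, with 389 and 480 in shNC and 589 and 5.29 in shGm26917. The lowest value came from the library with most reads in listed ORFs, although the TE of Psmd2 there was above shNC. The longer Psmd8 ORF was at 3.95 and 3.50 in shNC, 1187 in shGm26917 replicate 1 and listed at 0 in replicate 2. Of the 7 ORFs listed in all libraries, 7 lay on the same side of shNC in shGm26917 replicate 1 by ORF value and by TE. Of the 24 listed in both shNC libraries and shGm26917 replicate 2, 15 did so in shGm26917 replicate 2. Both measures use footprints of the same library, so such agreement is partly built in and is no independent check. The share over all ORFs was not computed.

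The wider ubiquitin-proteasome pathway also had no call. Of 35 listed symbols of ubiquitin genes, shuttles, regulators of proteasome expression and proteasome-associated proteins, 31 were in the gene table and 30 were tested. Of these, 0 passed limma's adjusted p, 0 had an unadjusted p under 0.05, 18 had a positive and 12 a negative log2 change, and the median was 0.05. Groups did not overlap in 5 higher (background 16.1%) and 2 lower genes (background 14.8%), for the higher ones a share near the background. Rps27a, a gene for ubiquitin fused to a ribosomal protein, had the smallest unadjusted p, 0.0705 by limma (adjusted p = 0.966). Its TE was 0.0139 and 0.0115 in shNC and 0.0239 and 0.0197 in shGm26917, low in all libraries, with a log2 change of 0.78 ± 0.33 that became 0.48 on log2(TE + 0.01). The unknown treatment of multiply matching reads leaves the low ratio of Rps27a uncertain as well. Adrm1, a ubiquitin receptor of the regulatory particle, had 0.0820 and 0.0690 in shNC and 0.273 and 0.0824 in shGm26917, where only replicate 1 was far above, and its log2 change of 1.00 ± 0.65 was 0.13 without that library. Ngly1, the glycanase that activates Nfe2l1, had 0.469 and 0.464 in shNC and 0.655 and 0.602 in shGm26917. Txnl1, a thioredoxin-like protein bound to the regulatory particle, had 2.04 and 1.80 in shNC and 2.56 and 2.40 in shGm26917, so its groups did not overlap either. Nfe2l1, the transcription factor that induces proteasome genes, had 1.08 and 1.25 in shNC and 1.04 and 1.29 in shGm26917. Pomp, which matures the core particle, had 1.503 and 1.22 in shNC and 1.02 and 1.85 in shGm26917. Sem1, a small lid subunit, had 11.6 and 8.63 in shNC and 5.75 and 14.0 in shGm26917, and the groups of all 3 genes overlapped. Their log2 changes of -0.0066, 0.02 and -0.16 turned direction when single libraries were left out, with ranges of -0.16 to 0.15, -0.40 to 0.45 and -0.80 to 0.48.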

How the data were processed

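Ribo-seq libraries of cycloheximide-treated FGSCs, 2 shNC and 2 shGm26917, were made and sequenced by a company for the authors on a NovaSeq instrument. The labels gave group and replicate number. The ORF table holds a signal per library that the authors made from RiboCode ORFs as reads divided by a size factor. All values above 0 were whole multiples of 1 read, within a tolerance of 0.01 reads (100% in each library), with 1 read worth 0.790, 1.17, 2.25 and 0.756. The gene table holds TE, a ratio deposited by the authors as footprints over RNA. Per the labels the build is mm10. The sources used here do not give the aligner, the counting tool or their treatment of strand and multiply matching reads. Columns of the authors' own fold changes, p-values and classes were not used.

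TE was compared with limma 3.58.1 on log2(TE) over the 10115 genes above 0 in all libraries, and ORFs with limma (trend) on log2(value + 1) over the ORFs above 1 in at least 2 libraries, so that ORF changes understate those of low values. Calls used a Benjamini-Hochberg adjusted p under 0.05 over all features. edgeR 4.0.16 (quasi-likelihood, TMM, filterByExpr) and DESeq2 1.42.0 (Wald) were run on the recovered ORF reads in R 4.3.3, and the fits were tested on simulated data. Precision is limited by 2 libraries per group and, in shGm26917 replicate 1, by the 372 ORFs listed, which held 157914 reads. That sum covers listed ORFs alone and is not the sequencing depth of the library, which is not known here. Promoter sequences are from RefSeq. Members, lists and tests were chosen with earlier results of these data known. Values were given in full for active-site subunits, ubiquitin receptors and deubiquitinase, ATPases, activators, inhibitor and chaperones, for the 4 members with the largest change in each direction and for those of highest and lowest TE, and, in the pathway list, for the 4 genes of smallest p with Nfe2l1, Pomp, Adrm1 and Sem1. Psma1, Psma6, Psma7, Psmb1, Psmb2 and Psmd genes not described singly are covered by counts and ranges. Alternatives were other pseudocounts, filters, scalings, each library left out, and the replicate number as a block. Counts of members outside the shNC values under other scalings, and Psmc3ip counted among the members, were alternatives added after seeing the data.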

Additional observations from a re-analysis of the deposited data

How the results depend on the processing

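Under other pseudocounts, filters, scalings and tests, 0 members and 0 ORFs were called. Leaving out each library in turn, where the group left with 1 sample is assumed to vary like the other, gave 0 to 14 members at the study's threshold and 0 to 19 ORFs called, with the highest counts without shGm26917 replicate 2 (14 members, 19 ORFs), and a median log2 change of 0.03 to 0.28 for TE and of -4.04 to 0.26 for ORFs. Members without overlap on the higher side came to 9 under quantile normalization, an alternative chosen after seeing the data, and those above both shNC libraries in shGm26917 replicate 2 to 31 (background 36.1%). Alternatives were followed for single genes and ORFs only in the 4 members of largest change in each direction, the named pathway genes and ORFs of Psmc5, Psmd5 and Psmd8. Among these, the log2 change turned direction when 1 library was left out for Psmc1 (-2.17 to 0.53), Psma2 (-1.40 to 0.33), Psmc6 (-1.38 to 0.36), Nfe2l1 (-0.16 to 0.15), Pomp (-0.40 to 0.45), Sem1 (-0.80 to 0.48) and the longer Psmd8 ORF (-2.24 to 7.98). Of the other members, Psma4, Psma6, Psmb4, Psmb7, Psmc2, Psmc4, Psmd1, Psmd9 and Psmd12 had a negative log2 change but a TE above the shNC mean in shGm26917 replicate 2. Psmb10, Psmd3, Psmd5, Psmd8, Psmd11 and Psmg4 did the reverse. The cause was not tested. Over single genes and ORFs, 164 alternatives kept direction and side of the threshold, 10 turned direction, and 3 passed the threshold, the ORFs of Psmc5, Psmd5 and Psmd8 without shGm26917 replicate 2. Samples with the same replicate number share only the number: their deviations correlated at -0.043 (TE) and -0.086 (ORFs). With the replicate number as a block 0 members and 0 ORFs were called, 0 members reached the study's threshold, and the medians were 0.11 and -2.55. Summed reads of the listed ORFs were lowest in shGm26917 replicate 1, where a value of 0 says only that an ORF was not listed. Why abundant ORFs were at 0 there was not tested.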
